A study of Solanum lycopersicum with 9 samples.

Results

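A set of 9 genes of the tomato cuticle and epidermis was followed in young locular tissue of fruits with CRISPR edits in the zinc finger gene SlZFP2. They are CD1, CD3, CER6, TTS1 and TTS2, which encode enzymes, and CD2, SHN1, SHN3 and MIXTA-like, which encode transcription factors. The members were chosen by gene identifier, and 8 of the 9 had a row among the 34075 genes of the count table. SHN3 (Solyc06g053240) was not analysed here. The table holds identifiers without names, so the names are those known for these identifiers from the tomato literature. The RefSeq table of assembly SLM_r2.1 lists 6 of the 9 names, and all 6 lie on the chromosome whose number stands in the identifier. Coordinates are left out, since no source used here names the genome build behind the counts.

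The tissue was dissected from Micro-Tom fruits, a dwarf cultivar, 6 days after anthesis, and the developing seeds were removed. The groups were c2.11 and c2.5, which are lines edited in SlZFP2 by CRISPR, and WT, with 3 libraries each. Each library pooled tissue of 6 fruits. All 9 samples carry the cultivar name as their genotype label, and the titles give the line. The design text describes the libraries of a genotype as biological replicates. The labels state neither the edited bases nor how many plants each pool came from. Where pools share plants, the p-values reflect spread that may be technical.

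The cuticle is a lipid layer that epidermal cells secrete on their outer walls. Its framework is cutin, a polyester of hydroxylated fatty acids, and it is filled and covered by waxes, which in tomato fruit include very-long-chain alkanes and triterpenoids. Cutin monomers are made inside the cell, exported and joined outside it, and SHINE, MIXTA-like and class IV homeodomain-leucine zipper factors control these steps in the epidermis. Locular tissue is the gel that grows from the placenta around the seeds, and only its outermost cells are epidermal. In bulk tissue, fewer cells of a type and less RNA per cell cannot be told apart.

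The 9 libraries held 19963325 to 20727310 counts, and 22331 to 22960 genes had a count in a library. Normalized CPM, the unit of all levels given, relate a count to its library's size after TMM scaling, a scaling that centres the bulk of the genes between libraries. SlZFP2, a name known for Solyc07g053570.4, was at 1.58, 2.25 and 1.40 normalized CPM in c2.11, 1.44, 0.709 and 1.38 in c2.5, and 1.14, 0.738 and 0.638 in WT. Its transcript was called higher in c2.11 (log2 1.04 ± 0.34, SE, edgeR adjusted p = 0.0190) and not in c2.5 (0.48 ± 0.35, edgeR adjusted p = 0.276), and a transcript level does not show whether the gene is edited. MBP3 and AGL11, MADS genes known for locular tissue and ovules, were abundant in all libraries, MBP3 at 320 to 395 and AGL11 at 109 to 138 normalized CPM. AGL11 was called higher in both lines together (log2 0.23 ± 0.06, SE, edgeR adjusted p = 0.00367) and MBP3 was not (0.12 ± 0.05, edgeR adjusted p = 0.0704). Of 3 further genes, the C-class MADS genes TAG1 (log2 0.39, edgeR adjusted p = 0.0176) and TAGL1 (0.45, edgeR adjusted p = 2.74e-05) were called higher in both lines together. The sucrose transporter SUT1 was not (0.48, edgeR adjusted p = 0.0522). TAG1 was not called in c2.5 alone (edgeR adjusted p = 0.197), and its line and WT libraries overlapped. The fit called 57.1% of all tested genes in both lines together. No data used here tie TAG1 or TAGL1 to tissue outside the locule. The part of tissue makeup in the results on the cuticle genes was not tested.

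In the edited lines the cutin polymerising enzyme CD1, the SHINE factor SHN1 and the MIXTA-like factor were higher than in WT, and the triterpenoid synthase TTS2 was lower. The cutin hydroxylase CD3 and the factor CD2 did not pass the test. Of the 8 members with a row, 6 had enough counts to be tested, and 4 of these 6 were called in both lines together, 3 of them upwards and 1 downwards (adjusted p under 0.05 over 19358 genes in edgeR's quasi-likelihood test). The same fit called 57.1% of all tested genes, 28.5% higher and 28.6% lower, so changed genes were common in the whole table. SHN1 passed the filter on low counts only through its line libraries, so it had to differ to be counted at all. The median log2 difference was 0.29 over the 6 tested members, 0.09 over the 5 without SHN1 and 0.01 over all tested genes. The same 4 members were called in each line alone in the fit over all 9 libraries, beside 54.6% of all tested genes in c2.11 and 49.9% in c2.5. Both lines are compared with the same 3 WT libraries.

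**Figure D1:**
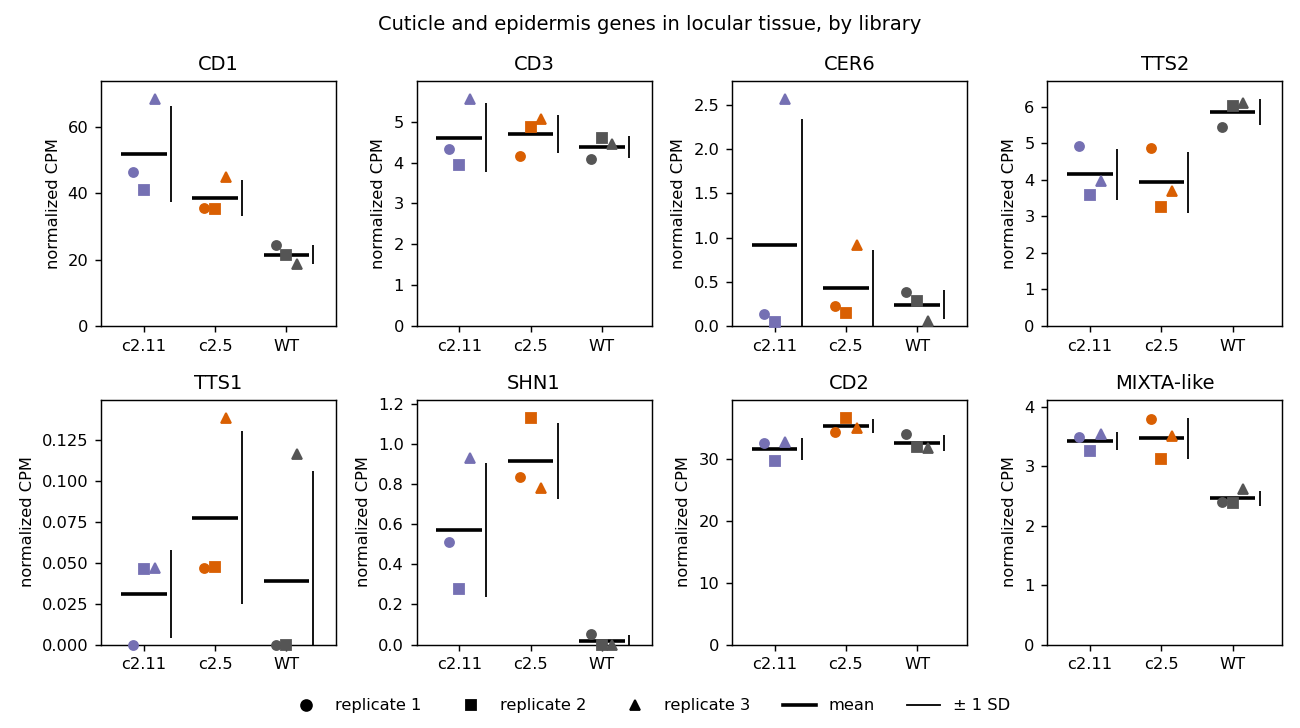
Normalized CPM of the 8 members in each library, one panel per gene, with the mean (thick line) and ± 1 SD (thin line, ended at 0) of the 3 libraries of c2.11, c2.5 and WT. CD1, SHN1 and MIXTA-like lie higher in all 6 line libraries than in WT, TTS2 lies lower, and CER6 stands out in replicate 3 of both lines.

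Of the cutin enzymes CD1 and CD3, CD1 passed the test. CD1 (Solyc11g006250.2, chromosome 11) is an extracellular acyltransferase of the GDSL family that joins cutin monomers into the polymer. It was at 46.4, 40.9 and 68.4 normalized CPM in c2.11, at 35.7, 35.3 and 45.0 in c2.5 and at 24.6, 21.4 and 18.7 in WT. Every line library lay above every WT library, and replicate 3 was the highest of its line in both lines. The mean was 51.9 ± 14.6 in c2.11, 38.6 ± 5.46 in c2.5 and 21.5 ± 2.95 in WT (SD, n = 3 libraries each). For both lines together CD1 was 2.08-fold higher than in WT (log2 1.06 ± 0.20, SE, edgeR adjusted p = 0.00240). In c2.11 the log2 difference from WT was 1.27 ± 0.22 (edgeR adjusted p = 0.00173), and in c2.5 it was 0.84 ± 0.22 (edgeR adjusted p = 0.0142). The call in c2.5 ended without WT replicate 2 (edgeR adjusted p = 0.0531) or WT replicate 3 (0.0611), within a range of 8.70e-06 to 0.0611 over all alternatives.

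CD3 (Solyc08g081220.1, chromosome 8) is the cytochrome P450 CYP86A69, which hydroxylates the end of fatty acids to make cutin monomers. Its values were 4.33, 3.94 and 5.55 normalized CPM in c2.11, 4.17, 4.87 and 5.07 in c2.5, and 4.08, 4.60 and 4.47 in WT. The 3 groups overlapped. For both lines together the log2 difference from WT was 0.09 ± 0.14 (SE, edgeR adjusted p = 0.606), and its 95% interval of -0.21 to 0.38 reaches up to 1.30-fold.

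CER6 (Solyc02g085870.3, chromosome 2) is a condensing enzyme that lengthens fatty acids for waxes. It was scarce in most libraries and did not pass the filter. It had 3, 1 and 55 counts in c2.11, 5, 3 and 20 in c2.5, and 7, 5 and 1 in WT. Replicate 3 of each line held most counts of its line, and the other 7 libraries had between 1 and 7. In a fit without the filter the log2 difference of both lines from WT was 1.36 ± 1.45 (SE, edgeR adjusted p = 0.508 over 25581 genes), and neither c2.11 (1.90, edgeR adjusted p = 0.393) nor c2.5 (0.83, edgeR adjusted p = 0.748) passed alone. The spread between the c2.11 libraries was larger than the differences between the genotype means.

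The triterpenoid synthases TTS1 and TTS2 cyclise oxidosqualene to amyrins, which enter the fruit wax. TTS2 (Solyc12g006520.2) and TTS1 (Solyc12g006530.2) are neighbours on chromosome 12, with 0 other genes listed between them in the RefSeq table, and are known as close relatives in sequence. No source used here says how reads that match both were counted, and the split between them is uncertain. TTS2 was at 4.93, 3.58 and 3.97 normalized CPM in c2.11, at 4.87, 3.26 and 3.69 in c2.5 and at 5.44, 6.02 and 6.09 in WT. All 6 line libraries lay below all 3 WT libraries, and the gap between the groups was smaller than the range within a line. TTS2 was 0.693 times its WT level in both lines together (log2 -0.53 ± 0.15, SE, edgeR adjusted p = 0.00781), with log2 differences of -0.49 ± 0.17 in c2.11 (edgeR adjusted p = 0.0276) and -0.57 ± 0.17 in c2.5 (edgeR adjusted p = 0.0149). The call for both lines together ended with total count scaling (log2 -0.25, edgeR adjusted p = 0.149, within 0.00266 to 0.149 over the alternatives). The call in c2.11 ended without c2.11 replicate 2 (edgeR adjusted p = 0.102) or 3 (0.0768) and without WT replicate 2 (0.0636) or 3 (0.0719), and that in c2.5 without c2.5 replicate 2 (0.0658) or 3 (0.0550).

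TTS1 was near the limit of detection. It had 0, 1 and 1 counts in c2.11, 1, 1 and 3 in c2.5, and 0, 0 and 2 in WT. With 2, 5 and 2 counts per genotype no fold is given, and a fit without the filter did not call TTS1 in both lines together (edgeR adjusted p = 0.871).

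Among the regulators, SHN1 gave a low signal in every line library and a single count in WT. SHN1 (Solyc03g116610.3, chromosome 3) belongs to the SHINE clade of the AP2/ERF family, whose members switch on cuticle lipid genes. It had 11, 6 and 20 counts in c2.11 and 18, 24 and 17 in c2.5, against 1, 0 and 0 in WT. These counts correspond to 0.275 to 0.933 normalized CPM in c2.11, 0.784 to 1.13 in c2.5 and at most 0.0544 in WT. The lowest line library was above the highest WT library. The 96 counts of the 6 line libraries against 1 count of the 3 WT libraries give a ratio of 39.6, with an exact 95% interval of 6.94 to 1579 that covers counting error only. The ratio was 30.4 in c2.11 (5.13 to 1234) and 48.8 in c2.5 (8.42 to 1958). The fitted log2 difference was 4.87 ± 0.78 for both lines together (SE, edgeR adjusted p = 0.000149). The fitted size rests on the prior count, since WT held 1 count. It was 6.90 without WT replicate 1, the library with that count (edgeR adjusted p = 0.000495). The adjusted p values ranged from 3.84e-05 to 0.00115 over the edgeR and DESeq2 alternatives that tested SHN1. In a fit on c2.11 and WT alone SHN1 did not pass the filter, and 3 of 5 tested members were called. The share of all tested genes called in that fit was not taken.

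CD2 (Solyc01g091630.3, chromosome 1) is a class IV homeodomain-leucine zipper factor whose loss leaves tomato fruit short of cutin. It was the steadiest member, at 32.7, 29.7 and 32.7 normalized CPM in c2.11, 34.4, 36.7 and 35.0 in c2.5, and 34.1, 31.9 and 31.7 in WT. For both lines together the log2 difference from WT was 0.04 ± 0.05 (SE, edgeR adjusted p = 0.567), with a 95% interval of -0.08 to 0.16. The libraries of c2.5 lay just above those of WT, and those of c2.11 overlapped with WT. With total count scaling CD2 was called higher (log2 0.32, edgeR adjusted p = 0.000544, within 0.000544 to 0.812 over the alternatives). That scaling moved the median of all tested genes to 0.29. A change of scaling moves all genes of a library alike, so the place of CD2 beside the median gene could hardly differ between scalings. Whether CD2 is called thus depends on the scaling, and which scaling holds was not tested.

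MIXTA-like (Solyc02g088190.4, chromosome 2) is an R2R3 MYB factor that shapes epidermal cells and promotes cuticle formation. It was at 3.49, 3.26 and 3.55 normalized CPM in c2.11, 3.80, 3.12 and 3.50 in c2.5, and 2.39, 2.39 and 2.61 in WT. The line libraries all lay above the WT libraries, and the means of the lines were close, at 3.43 ± 0.154 in c2.11 and 3.47 ± 0.344 in c2.5, with 2.46 ± 0.128 in WT (SD, n = 3 libraries each). It was 1.40-fold higher in both lines together (log2 0.49 ± 0.14, SE, edgeR adjusted p = 0.00814). The difference was 0.48 ± 0.15 in c2.11 (edgeR adjusted p = 0.0188) and 0.50 ± 0.15 in c2.5 (edgeR adjusted p = 0.0167). The call in c2.11 ended without c2.11 replicate 3 (edgeR adjusted p = 0.0517) or WT replicate 2 (0.0510), and the call in c2.5 without c2.5 replicate 1 (0.0676). DESeq2 called neither line alone, with adjusted p = 0.0784 in c2.11 and 0.0701 in c2.5.

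**Figure D2:**
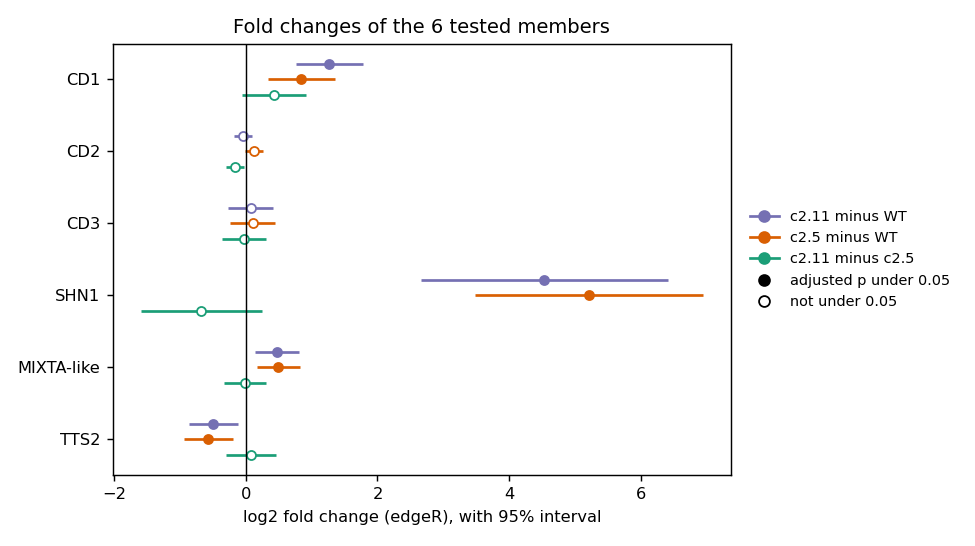
Log2 fold changes of the 6 tested members (horizontal axis) with 95% intervals, for c2.11 minus WT, c2.5 minus WT and c2.11 minus c2.5. Filled points have an edgeR adjusted p under 0.05. The 2 comparisons with WT share their WT libraries, and both gave filled points for CD1, SHN1, MIXTA-like and TTS2.

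The ranges of the 6 line and 3 WT libraries did not overlap for CD1, SHN1, MIXTA-like and TTS2, which are 4 of the 6 tested members. SHN1 passed the filter on low counts only through its line libraries, so its place in this count says nothing further. Of all tested genes, 49.5% had ranges that did not overlap. Under total count scaling 5 members were called upwards and 0 downwards, since CD2 and CD3 joined and TTS2 dropped out. That scaling called 55.6% of all tested genes higher and 15.2% lower.

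**Figure D3:**
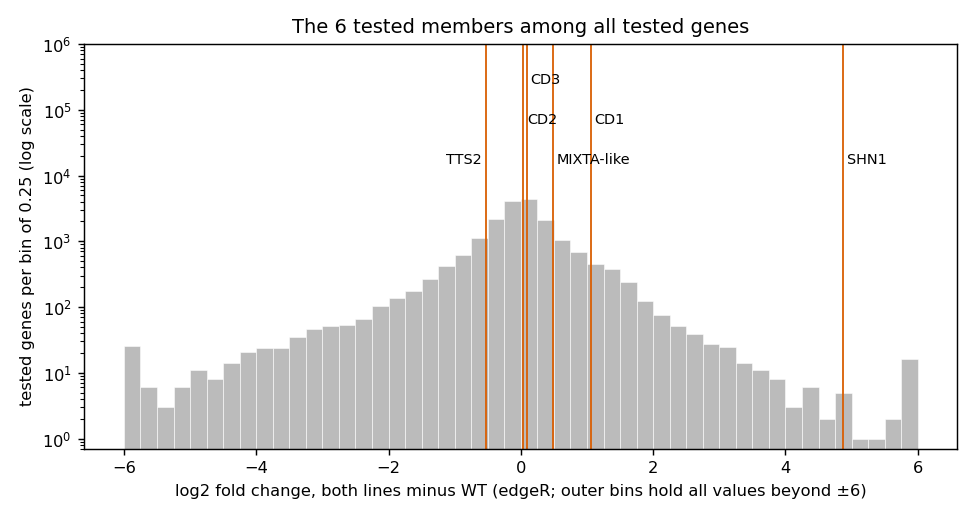
Histogram of the log2 fold changes of both lines minus WT over 19358 tested genes (grey bars, log scale), with the 6 tested members as orange lines. CD2, CD3, MIXTA-like and TTS2 lie in the dense centre, CD1 lies at 1.06 and SHN1 in the sparse right tail.

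No member differed detectably between the edited lines. In c2.11 against c2.5, 0 of the 6 tested members passed with edgeR and 0 with DESeq2, while 1.29% of all tested genes passed with edgeR. At an unadjusted p under 0.05 there was 1 member, CD2, which was lower in c2.11 (log2 -0.16 ± 0.06, SE, edgeR adjusted p = 0.261). CD1 had a log2 difference of 0.43 ± 0.21 (edgeR adjusted p = 0.402), with a 95% interval of -0.06 to 0.91. SHN1 had -0.67 ± 0.42 (edgeR adjusted p = 0.496), with an interval of -1.59 to 0.24. The intervals of MIXTA-like (-0.34 to 0.30), CD3 (-0.36 to 0.30) and TTS2 (-0.30 to 0.45) also included 0. These intervals leave room for differences of moderate size, so they do not show that the lines were alike.

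Summed over the members, the line libraries lay above WT, and most of that gap was CD1. The 8 members summed to 92.4, 81.7 and 117.8 normalized CPM in c2.11, 84.0, 84.6 and 94.0 in c2.5, and 71.0, 66.6 and 63.7 in WT. Without CD1 the sum was 40.8 to 49.3 in c2.11, 48.4 to 49.3 in c2.5 and 45.1 to 46.4 in WT. The c2.11 range covered the WT range, while c2.5 stayed just above it. Most of the sum without CD1 was CD2, on average 31.7 of 45.4 in c2.11, 35.4 of 48.9 in c2.5 and 32.6 of 45.6 in WT. That sum therefore mainly follows CD2 and says little about the scarcer members. The count ratio of CD1 to CD2 does not depend on scaling. It was 1.42, 1.38 and 2.09 in c2.11, 1.04, 0.963 and 1.28 in c2.5, and 0.721, 0.669 and 0.589 in WT. The ratio of MIXTA-like to CD2 was 0.107 to 0.110 in c2.11, 0.0849 to 0.111 in c2.5 and 0.0702 to 0.0823 in WT. The ratio of TTS2 to CD2 was 0.121 to 0.151 in c2.11, 0.0888 to 0.142 in c2.5 and 0.159 to 0.192 in WT. All 3 ratios separated the line libraries from WT. CD2 was taken as denominator after its values were seen, so these ratios are descriptions with no test.

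**Figure D4:**
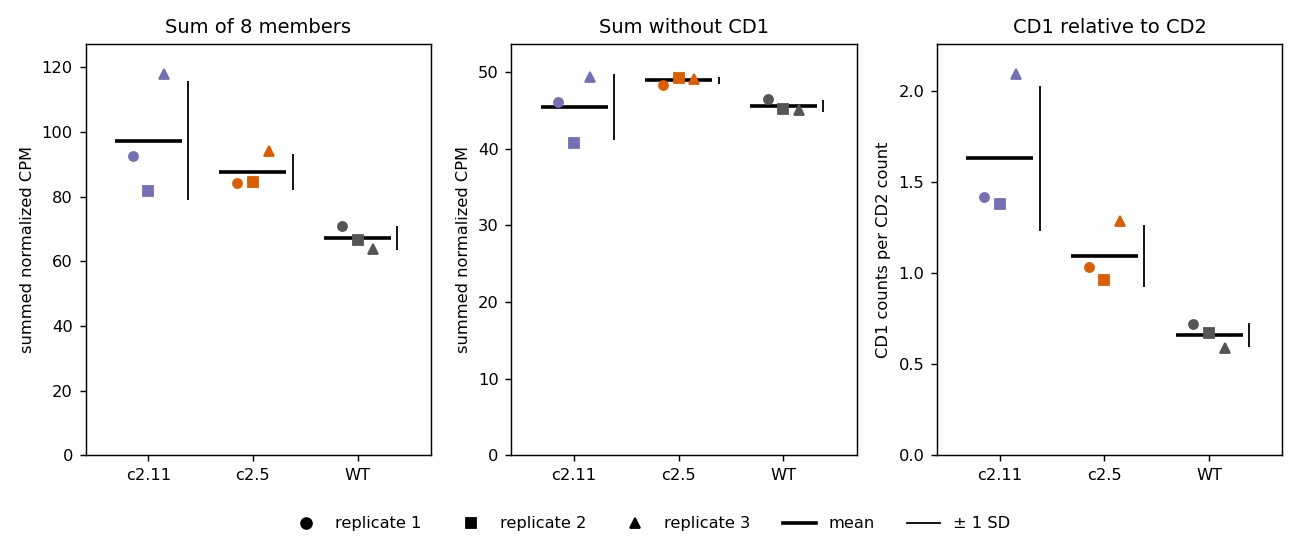
Summed normalized CPM of the 8 members, the same sum without CD1, and CD1 counts per CD2 count, by library, with the mean and ± 1 SD of the 3 libraries of c2.11, c2.5 and WT. The sum of all 8 separates the line libraries (81.7 and above) from WT (71.0 and below), the sum without CD1 does not separate c2.11 from WT, and the CD1 to CD2 ratio is above 0.95 in every line library and below 0.73 in every WT library.

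The spread within a genotype differed between members. The biological coefficient of variation from the edgeR fit was 6.03% for CD2, 11% for MIXTA-like, 12.3% for CD3, 13.7% for TTS2, 17.7% for CD1 and 26.6% for SHN1, beside a median of 8.15% over all tested genes. Each is a fitted value that edgeR draws towards genes of similar level, and not the spread seen in the libraries. In c2.11 the libraries of CD1 varied by 28.0% of their mean, while counting error alone would give 2.99%. For MIXTA-like the spread of 4.50% in c2.11 was below the 11.6% that counting error alone would give. The same held in c2.5 (9.89% against 11.6%) and in WT (5.19% against 15.1%), so its libraries showed no spread beyond counting error. Replicate 3 was the highest c2.11 library in 5 of the 6 tested members, while 34.0% of all tested genes peaked there. In c2.5 it was the highest in 2 of the 6.

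A list of 12 further identifiers, known from the tomato literature as genes of cutin and wax synthesis, export and control, was counted beside the members. All 12 had a row and 10 were tested. In both lines together 6 of the 10 passed, 4 higher and 2 lower, beside the 57.1% of all tested genes given above, and total count scaling gave 6 upwards and 1 downwards. In c2.11 alone 3 were higher and 2 lower, beside 54.6% of all tested genes called, and in c2.5 alone 5 were higher and 1 lower, beside 49.9%. These shares lie near those of all tested genes. Their median log2 difference in both lines together was 0.09. The files do not pair these identifiers with names, so they are given as identifiers, and 2 of them changed at least 2-fold in both lines together and in each line. Solyc03g025320.4 was at 26.0, 22.1 and 36.2 normalized CPM in c2.11, 28.9, 27.8 and 31.9 in c2.5, and 3.46 to 5.44 in WT. It was 6.67-fold higher in both lines together (log2 2.74 ± 0.21, SE, edgeR adjusted p = 5.75e-06), and its line and WT libraries were far apart. Solyc03g065250.4 went the other way, at 1.40, 0.825 and 2.47 normalized CPM in c2.11, 0.974, 1.70 and 1.43 in c2.5, and 11, 11.8 and 13.1 in WT. It was at 0.123 times its WT level (log2 -3.03 ± 0.24, SE, edgeR adjusted p = 1.59e-06).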

How the data were processed

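Per the labels' protocols, locular tissue gave stranded mRNA libraries, sequenced on DNBseq in pairs of 150 bases. The authors deposited raw counts per gene in one table. The submitters' processing notes list FastQC and featureCounts with no version. Aligner, build, annotation and the strand and multiple-match settings of the counting were not given in the sources used here. Columns were matched to samples by title.

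Genes were kept by filterByExpr (19358 of 34075), scaled by TMM and tested with edgeR 4.0.16 in R 4.3.3 (robust quasi-likelihood test, all 9 libraries in one fit, genotype as the only term). The p-values were adjusted by Benjamini-Hochberg over all tested genes, with a threshold of 0.05. Each SE was derived from the log2 difference and its F statistic, and gave the 95% interval. On simulated data the fit gave the right direction for more than 95% of the changed genes it called. The share of false calls was on average above the threshold. Those data were drawn with the spread and scaling that the fit had estimated, so its model held by construction. The simulation changed only a small part of the genes, in both directions alike, and none that were scarce in WT. The fit to the real counts called 57.1% of all tested genes, so the simulated share of false calls cannot be carried over to it. Ratios of scarce counts have exact binomial intervals. Those intervals cover counting error only.

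The members and lists were chosen with earlier results of these data known. Every member is named; further identifiers were named if called the same way in both lines and changed at least 2-fold in both lines together. The MADS genes and SUT1 were named, and CD2 taken as denominator, after values were seen. Libraries of one genotype differed beyond sampling noise, at 4.51 to 22.7 for chi-square over its degrees of freedom. Pairs of WT libraries were at 11.2 to 22.7, pairs of c2.11 at 5.75 to 9.36 and pairs of c2.5 at 4.51 to 5.51. WT, the reference of both lines, thus varied most, while the fit estimated the spread over all genotypes together. Alternatives were DESeq2 1.42.0, other scalings and filters, fits on the compared genotypes, the replicate number as a block and the removal of each library. Removing replicate 3 of both lines was chosen after seeing the data.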

Additional observations from a re-analysis of the deposited data

How the results depend on the processing

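Across the alternatives, 361 of 397 values of single members kept their direction and their side of the threshold, and 12 changed sign, 11 of them in values called neither before nor after. Without replicate 3 of either line CD3 was at -0.0168 in the lines together and at -0.0808 in c2.11. Apart from CD2 under total count scaling, given next, the others came from leaving out single libraries, where CD2 ranged from -0.0622 to 0.00187 and CD3 from -0.0808 to 0.170 in c2.11 against WT, and, in c2.11 against c2.5, CD3 ranged from -0.186 to 0.0714, MIXTA-like from -0.0910 to 0.0508 and TTS2 from -0.0630 to 0.258. With total count scaling, CD2 and CD3 were called higher in both lines together (0.32 and 0.37) and in c2.5 (0.40 and 0.39), CD2 turned to higher in c2.11 (0.23, against -0.04 with TMM), and TTS2 lost its calls (-0.25 in both lines together, -0.22 in c2.11 and -0.28 in c2.5). That scaling put the median of all tested genes at 0.29, against 0.01 with TMM. With DESeq2, MIXTA-like lost its calls in c2.11 (0.47) and c2.5 (0.49). Without replicate 3 of either line, 2 members were called in c2.11 and 2 in c2.5, as MIXTA-like (0.46 in c2.11, 0.49 in c2.5) and TTS2 (-0.46 in c2.11, -0.52 in c2.5) dropped out. That fit had fewer libraries and slightly smaller differences for both genes, and the part of each was not tested. The 4 calls in both lines together stayed at 4. Shares of all tested genes called were taken only for the chosen edgeR fit and for total count scaling. The counts of members called in the other fits have no such share beside them. Whether those counts are particular to the members was not tested. Without single libraries, the log2 differences ranged from 4.42 to 6.90 for SHN1 in both lines together, from 0.72 to 0.95 for CD1 in c2.5, from 0.46 to 0.52 and from 0.43 to 0.57 for MIXTA-like in c2.11 and c2.5, and from -0.63 to -0.40 and from -0.75 to -0.45 for TTS2 in c2.11 and c2.5, and 2 to 4 members were called in c2.11 (2 without c2.11 replicate 3 and 2 without WT replicate 2). The summed member level averaged 103 CPM in c2.11, 93.6 in c2.5 and 59.1 in WT with total count scaling in place of TMM, and without CD1 it averaged 45.4 normalized CPM in c2.11, 48.9 in c2.5 and 45.6 in WT. SHN1 did not pass the filter of 1 CPM in 6 libraries, nor the filter in a fit on c2.11 and WT alone. Same-numbered libraries share only a number as far as the labels say. Their departures from the genotype mean correlated at -0.26 to 0.24, beside -0.29 to 0.36 for other numbers. The replicate block left 4 members called in both lines together, 4 in c2.11, 4 in c2.5 and 0 between the lines. SHN1 and TTS1 are limited by depth. CER6 is limited by its spread between libraries as well, at 156% of its mean in c2.11 where counting error alone would give 22.5%.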

Other observations

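1 of the 12 further cuticle identifiers, Solyc12g009490.3, was named after its values were seen. It had 0, 1 and 14 counts in c2.11, 0, 0 and 8 in c2.5, and 1, 0 and 0 in WT. As with CER6, replicate 3 of each line held most counts of its line. Among the 10 tested further identifiers, replicate 3 was the highest library in 7 in c2.11, 4 in c2.5 and 3 in WT, while it was the highest for 34.0% of all tested genes in c2.11, 33.5% in c2.5 and 34.9% in WT. Without replicate 3 of either line, CD1 was called higher in both lines together, at log2 0.87 against 1.06 with all libraries (edgeR adjusted p = 2.89e-05). Replicate 3 was the highest CD1 library in both lines and was left out after the values were seen. That choice narrows the spread of CD1, so this p is no independent support. SHN1 was at 4.65 (edgeR adjusted p = 0.000617). It passed the filter on low counts only through its line libraries, so its call says nothing further. The edgeR or DESeq2 adjusted p values ranged from 4.07e-11 to 0.0170 for CD1 over all alternatives. For SHN1 they ranged from 3.84e-05 to 0.00115 over the alternatives that tested it.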
